A study of Mus musculus with 3 samples.

Results

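Genes of the transcription factor NF-kB and of its inhibitors were examined for trimethylation of histone H3 at lysine 36 (H3K36me3) in mouse regulatory T (Treg) cells of the spleen and the large intestine. The set held 10 genes, namely the 5 genes of the Rel family of subunits (Rel, Rela, Relb, Nfkb1 and Nfkb2), 4 genes of IkB proteins (Nfkbia, Nfkbid, Nfkbiz and Bcl3) and Tnfaip3. Nfkbib and Nfkbie, which also encode IkB proteins, were listed with the wider pathway genes instead. The 10 were chosen by name, with earlier results of these data known. A peak was counted for a gene when its midpoint lay in the annotated gene body. All 10 had a peak, out of 11946 genes with a peak in all, and together they held 97 of the 120910 peaks. Treg cells were sorted as CD3+CD4+ cells with the Foxp3-YFP reporter from C57BL/6 mice at steady state, with no treatment named. Cells of 7 male and 7 female mice were pooled, so that each tissue was represented by 1 library with no replicate, and a further sample of input chromatin from splenic Treg cells was not analysed here. The methods give young adult age as the default for mice. Both libraries carried the Cre-YFP allele at Foxp3, so the cells are those in which this locus was active, and the labels name no deleted gene.

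NF-kB proteins act as dimers of Rel family subunits. In resting cells IkB proteins such as IkBalpha, the product of Nfkbia, hold them in the cytoplasm. Signals from antigen, costimulatory and cytokine receptors activate the IKK kinases, which mark this IkB for degradation and release the dimers to the nucleus. The IkB proteins of Nfkbid, Nfkbiz and Bcl3 are nuclear, and they are grouped with the inhibitors here by family only. In Treg cells c-Rel, the product of Rel, is known for its part in thymic development and in the induction of Foxp3, while Tnfaip3 encodes A20, a ubiquitin-editing enzyme that ends the signal. H3K36me3 is laid down by Setd2 along transcribed genes behind RNA polymerase II, and its level usually rises towards the end of the gene.

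Several of these genes are known targets of NF-kB itself, and the binding sequences in their promoters are shown for this reason. RefSeq promoters (GRCm38.p6, the assembly of mm10), from 250 bases before to 50 bases after a transcript start, were listed for 7 of the 10 genes, and those of Relb, Nfkb1 and Nfkbiz are named only. The binding motif was searched on both strands as GGGA, 2 bases of any kind and TTCC or TCCC, or as GGGG, 2 bases of any kind and TTCC. These forms can overlap, as they do at the sites shown for Nfkb2 and Rel. A match was found in 8 of the 12 promoter entries of members, whereas 3.44% of all 32851 promoter entries held a match. By gene it was found in 6 of the 7, Rela being the exception, next to 3.85% of the 27025 genes with an entry. For each of the 6 genes 1 match is given with 10 bases on either side, read along the gene's strand, with the motif in capitals.
Nfkbia, chr12:55492657-55492686, minus strand: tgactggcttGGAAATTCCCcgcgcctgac
Nfkb2, chr19:46304688-46304717, plus strand: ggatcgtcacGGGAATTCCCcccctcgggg
Rel, chr11:23771042-23771071, minus strand: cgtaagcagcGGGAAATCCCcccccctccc
Bcl3, chr7:19822734-19822763, minus strand: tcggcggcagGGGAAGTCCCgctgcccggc
Tnfaip3, chr10:19015403-19015432, minus strand: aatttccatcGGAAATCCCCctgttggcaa
Nfkbid, chr7:30422170-30422199, plus strand: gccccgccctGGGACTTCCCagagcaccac
None of the 8 promoter entries with a match overlapped an H3K36me3 peak. A peak overlapped 3 of the remaining entries, those of Rela and of downstream starts of Nfkbid and Tnfaip3. A match is a description of the sequence, and binding of NF-kB was not measured.

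The values are the mean RPKM of each peak, a read coverage scaled to length and to sequencing depth. Their smallest steps correspond to a depth of about 29600000 mapped reads for the spleen library and 38100000 for the large intestine library, and the large intestine values were multiplied by 0.969 to give both columns the same total. All 7 listed Treg and T cell markers, Foxp3, Il2ra, Ctla4, Ikzf2, Tnfrsf18, Cd3e and Cd4, had peaks, with a summed signal of 1810 and 1489 RPKM, in the order spleen and large intestine. Ikzf2 alone held 1205 and 824 RPKM of this, and 4 of the 7 were higher in large intestine. Of 5 B cell markers 3 had a peak (60.2 and 51.8 RPKM), with none at Ms4a1 or Ebf1. Of 5 myeloid markers only Csf1r had one (14.7 and 15.8 RPKM), and of 6 epithelial markers Epcam and Vil1 had peaks (29.9 and 58.0 RPKM) while Cdx2, Krt8, Krt20 and Muc2 had none. Cd8b1 had 21.1 and 9.16 RPKM and Cd8a had no peak. The part of these cells in the results below was not tested.

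The NF-kB genes were strongly marked. Levels were compared per length, as the signal of all peak bases in the gene body divided by the length of the body, with bases outside peaks taken as 0. In spleen 6 of the 10 genes, and in large intestine 7, stood in the highest 10% of the 9442 protein-coding genes that reached 20 RPKM in the sum of the libraries, whose median level was 4.95 and 5.05 RPKM in these libraries. Tnfaip3 had the highest level in either library, with 39.9 RPKM (spleen) and 39.2 RPKM (large intestine). Its approximate 95% counting intervals, 38.0 to 41.8 and 37.6 to 40.8 RPKM, lay above those of every other member. These intervals treat each read as 200 bp of coverage and an independent molecule, and cover counting error only.

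Tnfaip3 was followed by a group of 3 genes, for which spleen had 31.4 RPKM over Nfkbid, which encodes the nuclear inhibitor IkBNS, 30.6 RPKM over Rela and 29.4 RPKM over Nfkb2, with overlapping intervals. Rela encodes p65, the main activating subunit, and Nfkb2 encodes p100, the precursor of p52. In large intestine Nfkb2 and Rela both had 34.3 RPKM and Nfkbid had 31.2 RPKM, and the intervals of neighbours in this order overlapped. Nfkbia, which encodes the inhibitor IkBalpha, followed with 24.9 and 28.2 RPKM, and its interval overlapped that of Nfkb2 in spleen and that of Nfkbid in large intestine. Relb, whose product pairs with p52, had 18.6 and 17.9 RPKM, below Nfkbia in both libraries. Bcl3, a nuclear IkB protein that binds p50 and p52, had 15.0 RPKM in the spleen library and 19.2 RPKM in the other, so that it stood below Relb in spleen, while their intervals overlapped in large intestine. Nfkb1, which encodes p105 and p50, had 14.7 and 16.4 RPKM, with an interval that overlapped that of Bcl3 in spleen only. Nfkbiz, which encodes the nuclear IkBzeta, had 11.5 and 11.2 RPKM. Rel had the lowest level of the 10, with 8.79 RPKM (spleen) and 7.49 RPKM (large intestine). Even so, 70.1% and 63.6% of the coding genes tested had less.

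**Figure D1:**
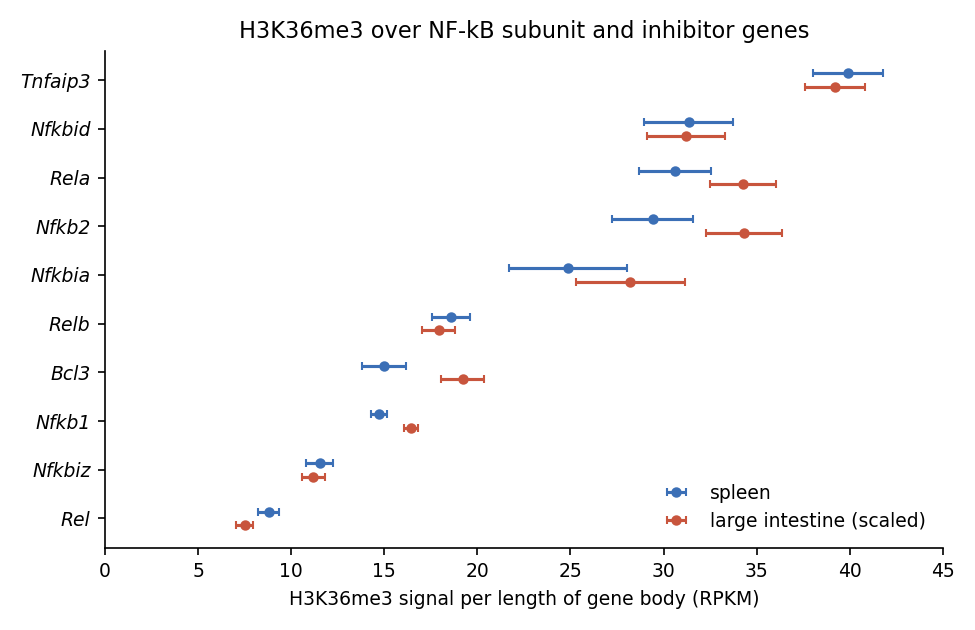
H3K36me3 signal per length of gene body (RPKM, x axis) of the 10 genes in the spleen library (blue) and the scaled large intestine library (red), with points for the value and bars for the approximate 95% counting interval. Tnfaip3 stands highest at 39.9 and 39.2 RPKM and Rel lowest at 8.79 and 7.49 RPKM.

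The signal was spread over more of these genes than usual. Peaks covered between 46.2% (Nfkbiz) and 95.8% (Rela) of the gene body, against a median of 39.2% over the coding genes tested, and all 10 were above that median. Of the 97 peaks, 47.4% were at least 1 kb long, compared with 23.3% of all peaks. Nfkbiz, Tnfaip3 and Relb each held a peak among the longest 1% of all peaks, of 10.1 kb, 9.72 kb and 9.35 kb. Nfkbid had a single peak of 6.78 kb with nearly the same value in both libraries, 36.9 and 36.7 RPKM. In 8 of the 10 genes a peak ran past the annotated end, by 2.09 kb in Nfkbia and by 1.95 kb in Nfkb2, whose peak overlaps the neighbouring gene Psd. The share of all genes with such a peak is not given.

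With the gene body split into 3 equal parts, the signal per length was higher in the last part than in the first in both libraries in 9 of the 10 genes. The share over all genes is not given. In Nfkbid, Nfkb2 and Nfkbia 1 long peak filled the middle and last parts, so no rise between these could be seen. In Nfkbid that peak was the only one and covered 55.2% of the first part, so its contrast is one of coverage. In Nfkb1 the level per length was 8.44 RPKM in the first part, 13.5 RPKM in the middle part and 22.2 RPKM in the last part in spleen, and 9.41, 15.5 and 24.4 RPKM in large intestine. In Nfkbiz the contrast was steeper, with 1.69 and 2.04 RPKM in the first part and 30.8 and 29.5 RPKM in the last. Rela was the exception, with 31.4 and 35.5 RPKM in the first part and 26.3 and 28.8 RPKM in the last. The first peak began 7.18 kb from the start in Rel, 3.58 kb in Nfkbiz and 2.19 kb in Bcl3, but 0.088 kb in Nfkbia and 0.29 kb in Rela. Because each peak carries 1 value, changes within a long peak could not be resolved.

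**Figure D2:**
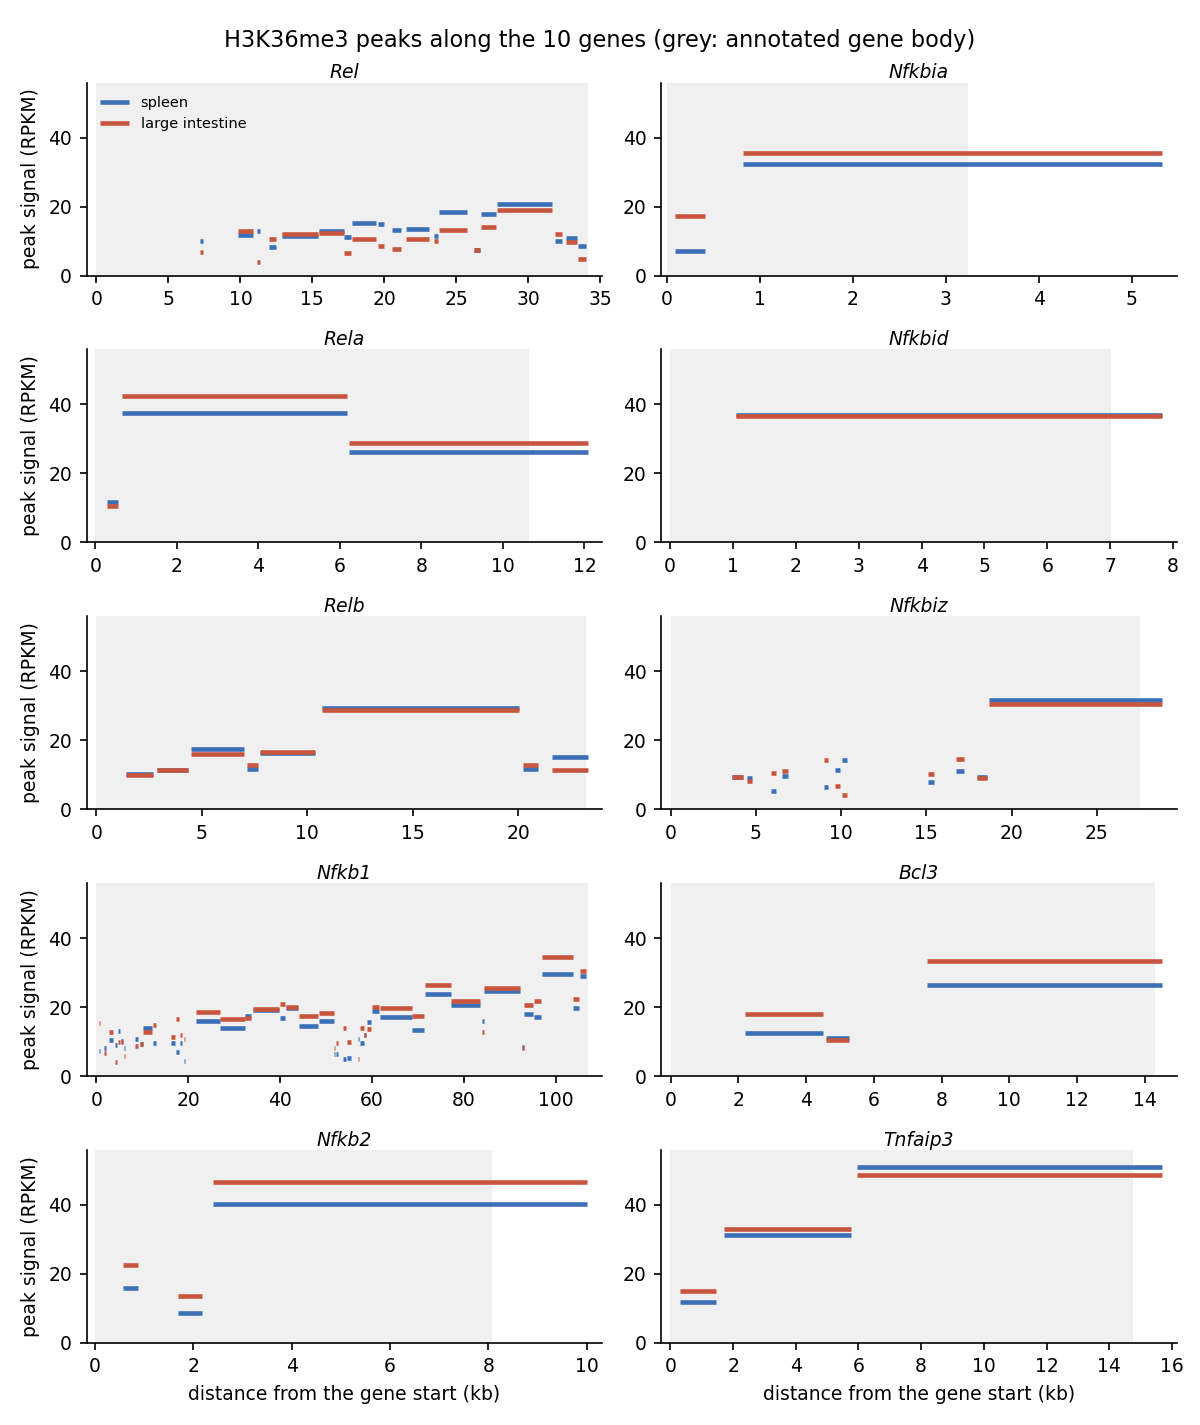
Peak signal (RPKM, y axis) against the distance from the gene start (kb, x axis) for the 10 genes, with each bar spanning 1 peak in spleen (blue) or large intestine (red) and the gene body in grey. Signal rises towards the end in most genes, Rel has no peak in its first 7.18 kb, and for Nfkbid the 2 bars lie on top of each other at 36.9 and 36.7 RPKM.

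The next comparison asked whether these genes carried different amounts of the mark in intestinal and splenic Treg cells. Within each library the peak values of a gene were added up. Ratios are given as log2 of large intestine over spleen after adding 0.5 RPKM to each sum, a scale that understates changes of low values. No member was past 2-fold in either direction. Over all 10848 genes that reached 20 RPKM, 3.36% were past 2-fold with more signal in large intestine and 2.03% with more in spleen. The ratios of the 10 members ranged from -0.32 to 0.41 with a median of 0.080, next to a median of 0.0050 over all genes tested. More signal in large intestine was seen for 7 of 10 members and for 50.7% of all genes, and 6 members lay within the middle 50% of all genes (-0.20 to 0.24). The counting interval was above 0 for 4 members (Nfkb1, Nfkb2, Nfkbia and Bcl3) and below 0 for 1 (Rel), while over all genes these shares were 18% and 15.3%. After the correction for GC content described below, the interval of Nfkb1 alone of these 5 excluded 0. Less signal in a library can mean fewer cells with the mark or less of it per cell, which cannot be told apart in pooled cells.

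**Figure D3:**
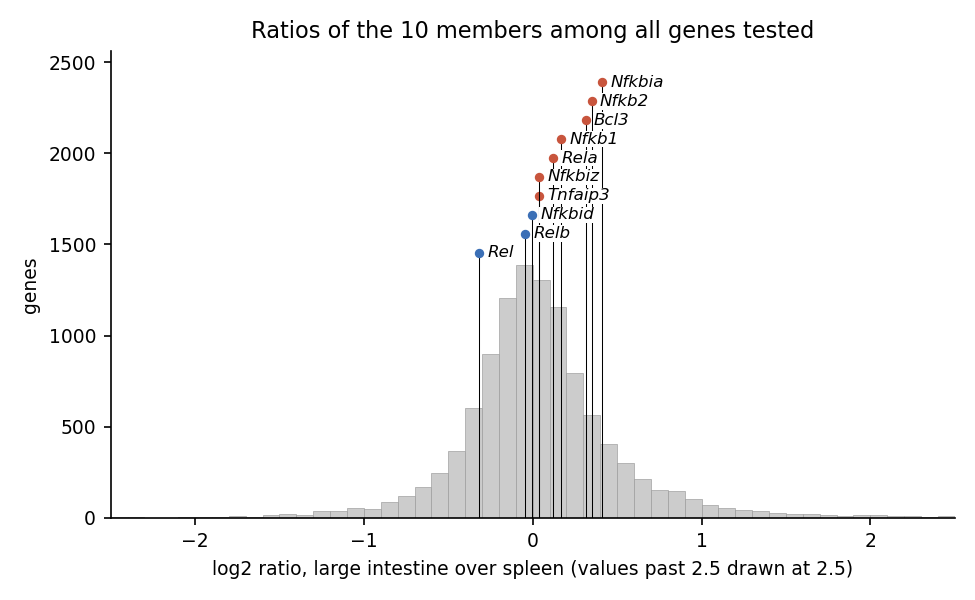
Number of genes (y axis) by log2 ratio of large intestine over spleen (x axis) for the 10848 genes tested, in bins of 0.1, with the 10 members marked by lines and named. The members lie between -0.32 (Rel) and 0.41 (Nfkbia), inside the bulk of the distribution.

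Rel was the member with the least relative signal in large intestine. The gene (ENSMUSG00000020275.9, minus strand of chromosome 11, 23736847 to 23770970 in mm10) had 19 peaks that summed to 240.2 RPKM in the spleen library and 193 RPKM in the large intestine library. The spleen library was higher in 14 of these 19 peaks, and in 6 of the 8 peaks of 1 kb or more. The log2 ratio was -0.32 (approximate counting interval -0.50 to -0.13). Among the long peaks, the 2 whose own interval was below 0 both lay in introns, one centred 18.6 kb from the start with 15.2 and 10.6 RPKM, the other centred 24.8 kb from it with 18.5 and 13.1 RPKM. The strongest peak, 3.84 kb long and centred on an exon 29.7 kb from the start, had 20.8 and 18.9 RPKM and a ratio of -0.13 (-0.38 to 0.11). Peaks of Rel were poor in G and C, with 40.3% over all their bases, the lowest value of the 10 genes. With GC correction the ratio was -0.060 (-0.24 to 0.12), and Rel was no longer the lowest member. Nfkbid (-0.15), Relb (-0.10) and Rela (-0.061) were then lower, with intervals that overlapped that of Rel.

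Nfkb1, the longest of the genes at 107 kb, leaned the other way (ENSMUSG00000028163.17, minus strand of chromosome 3, 135584655 to 135691547). Its 44 peaks summed to 601 RPKM in the spleen library and 675 RPKM in the large intestine library. The large intestine library was higher in 31 of them. Of its 21 peaks of 1 kb or more, 19 were higher in large intestine. The log2 ratio was 0.17 (0.075 to 0.26), a 1.12-fold difference, and it was 0.16, 0.19 and 0.14 in the first, middle and last part of the body by level per length. The strongest peak, 6636 bp long and centred in an intron 100.3 kb from the start, had 29.6 and 34.5 RPKM (ratio 0.21, 0.067 to 0.36). The only long peak past 1.5-fold was a weak one of 1028 bp near the middle of the gene, with 5.36 and 9.88 RPKM and a wide interval of 0.054 to 1.59. Of the 23 shorter peaks, 4 were past 2-fold with more signal in large intestine and 2 with more in spleen, where 11.2% and 12.2% of all peaks under 1 kb were. The counting intervals of the ratios of Rel and Nfkb1 did not overlap.

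Of the remaining subunits, Nfkb2 had an interval above 0, and Rela and Relb had intervals that included 0. Rela (ENSMUSG00000024927.8, plus strand of chromosome 19, 5637483 to 5648130) held 3 peaks that summed to 75.3 RPKM (spleen) and 81.9 RPKM (large intestine), with a ratio of 0.12 (-0.086 to 0.33). Its 2 long peaks were both higher in large intestine, at 37.4 against 42.5 RPKM and 26.3 against 28.8 RPKM, and weighting peaks by length gave 0.16 (0.048 to 0.27). Relb (ENSMUSG00000002983.17, minus strand of chromosome 7, 19606217 to 19629438) held 8 peaks with 123 and 119 RPKM in all, of which 4 were higher in each library. Its ratio was -0.043 (-0.20 to 0.12), and a difference could not be detected at this depth. Nfkb2 (ENSMUSG00000025225.15, plus strand of chromosome 19, 46304320 to 46312385) held 3 peaks that were all higher in large intestine and summed to 64.8 and 82.7 RPKM, with a ratio of 0.35 (0.067 to 0.63). Its peak of 7.60 kb alone, which held 90.5% of the peak bases, had 40.4 and 46.5 RPKM and a ratio of 0.20 (0.083 to 0.32). Its first peak also lies in the body of AC114539.1, and without that peak the ratio was 0.29. With GC correction it was 0.047 (-0.23 to 0.33).

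Among the inhibitors, Nfkbia and Bcl3 had more signal in large intestine. Nfkbia (ENSMUSG00000021025.8, minus strand of chromosome 12, 55489410 to 55492647) held 39.6 RPKM in the spleen library and 52.9 RPKM in the large intestine library, and its ratio of 0.41 (0.11 to 0.72) was the largest of the 10. This size rested on a peak of 321 bp, centred 0.25 kb from the start, with 7.23 against 17.4 RPKM. The 4505 bp peak over the rest of the gene had 32.4 and 35.5 RPKM and a ratio of 0.13 (-0.042 to 0.31), and all peaks weighted by length gave 0.16 (-0.014 to 0.33), while GC correction gave 0.27 (-0.018 to 0.57). Bcl3 (ENSMUSG00000053175.17, minus strand of chromosome 7, 19808462 to 19822770) held 3 peaks that summed to 49.9 and 62.1 RPKM, with a ratio of 0.31 (0.11 to 0.52). Both of its long peaks were higher in large intestine, at 12.6 against 18.1 RPKM and 26.3 against 33.4 RPKM. By midpoint 2 of the 3 peaks also lie in the bodies of Gm16174 and Gm16175. The peak with its midpoint in Bcl3 alone, which still overlaps Gm16174, gave 0.51 (0.15 to 0.87). All 3 with GC correction gave 0.17 (-0.032 to 0.37).

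The summed ratios of the other inhibitors had intervals that included 0. Tnfaip3 (ENSMUSG00000019850.11, minus strand of chromosome 10, 19000910 to 19015657) held 94.3 against 96.7 RPKM, and its ratio was 0.036 (-0.076 to 0.15). Its 9.72 kb peak had 51.0 and 48.6 RPKM, while its peaks of 4051 bp and 1141 bp towards the start had 31.3 and 32.9 RPKM and 11.97 and 15.1 RPKM. The large intestine library was higher in the peaks towards the start and lower in the long peak, and each of these 3 intervals included 0. Nfkbid (ENSMUSG00000036931.15, plus strand of chromosome 7, 30421732 to 30428746) had a ratio of -0.0059 (-0.14 to 0.13) in its single peak, and -0.15 (-0.28 to -0.013) after GC correction. Nfkbiz (ENSMUSG00000035356.17, minus strand of chromosome 16, 55811375 to 55838899) held 11 peaks that summed to 125 and 129 RPKM, with a ratio of 0.039 (-0.24 to 0.32). Its 10.1 kb peak had 31.7 and 30.4 RPKM, with a ratio of -0.060 (-0.18 to 0.061), whereas its 10 peaks under 1 kb ranged from -1.68 to 1.10, and the lowest of these had an interval below 0 (-3.17 to -0.20).

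**Figure D4:**
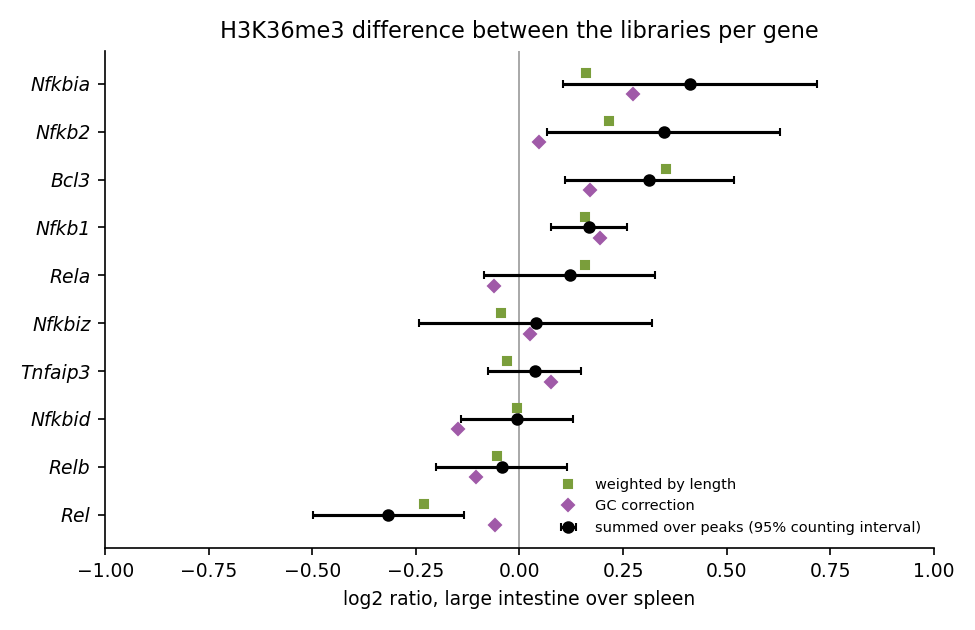
Log2 ratio of large intestine over spleen (x axis) for each gene, summed over peaks (black, with the approximate 95% counting interval), weighted by peak length (green) and corrected for GC content (purple). Nfkb1 has 0.17, 0.16 and 0.20 in this order, while Rel moves from -0.32 to -0.060 and Nfkb2 from 0.35 to 0.047 with the GC correction.

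The ratio moved with base composition. Over all peaks its median was -0.53 in the lowest of 20 bins of GC content and 0.35 in the highest. Among the members Rel had the lowest peak GC content (40.3%) and the lowest ratio, and Nfkb2 the highest GC content (57.4%) and the second highest ratio. Each peak was then corrected for the median ratio at its GC content, interpolated between the bins. The medians were taken over peaks of every length, of which 23.3% were at least 1 kb long, so the correction was not matched for length. The source of the trend was not tested. Peaks below 35.7% or above 59.0% GC, the median GC of the outermost bins, took the value of that bin. The 321 bp peak of Nfkbia, with 70.1% GC, was one of these, so its correction did not come from peaks of like GC content. With the correction the intervals of Rel, Nfkb2, Nfkbia, Bcl3 and Rela (-0.061) included 0. Nfkb1, whose peaks had 45.4% GC, close to the median of 46.5% over all peaks, had 0.20 (0.10 to 0.29) after the correction. Nfkbid then had an interval below 0. Of the 44 Nfkb1 peaks, 34 were above the median ratio of all peaks of their GC content, as were 9 of the 19 Rel peaks. The intervals of Rel and Nfkb1 overlapped after the correction.

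**Figure D5:**
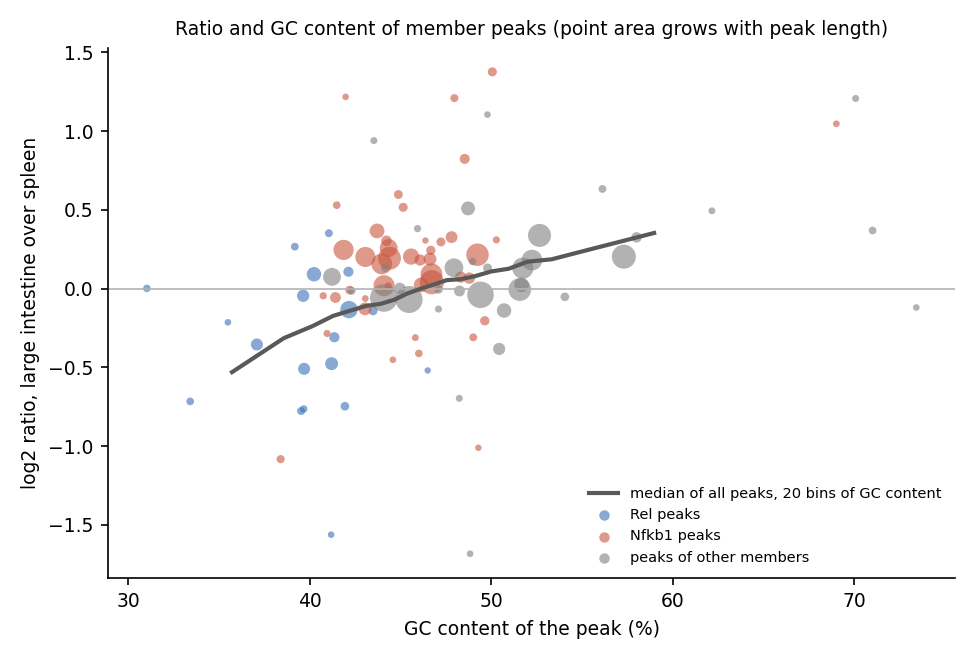
Log2 ratio of large intestine over spleen (y axis) against GC content (%, x axis) for the 97 member peaks, with point area growing with peak length and a line for the median of all peaks in 20 bins of GC content. Most long Nfkb1 peaks (red) lie above the line, and Rel peaks (blue) lie on both sides of it at low GC content.

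The peaks were also compared by length and position. Over all 97 peaks, 56 were higher in large intestine, next to 49% of all peaks, and 6 and 4 were past 2-fold with more signal in large intestine and in spleen, next to 9.03% and 9.58%. The counting interval was above 0 for 12 and below 0 for 3 of the 97, next to 7.16% and 6.96%. Of the 46 member peaks of 1 kb or more, 31 were higher in large intestine, next to 51.4% of all peaks of that length. None of these 46 was past 2-fold, where 1.78% and 0.792% of all such peaks were, while 9 had an interval above 0 and 2 below 0, next to 13.3% and 9.29%. The 9 were spread over Nfkb1 with 5, Bcl3 with 2, and Rela and Nfkb2 with 1 each, and the 2 both lay in Rel. Of the 51 shorter peaks, 25 were higher in large intestine (48.3% of all), 6 and 4 were past 2-fold (11.2% and 12.2% of all), and 3 and 1 had intervals above and below 0, next to 5.29% and 6.25%. Of the 15 member peaks centred within 1 kb of a transcript start of their gene, 12 were higher in large intestine, next to 52.1% over all genes, and their median ratio was 0.33 next to 0.027. Their median GC content was also higher, 52.7% next to 48.0%. Any annotated transcript start of the gene counted, so this class is not limited to the beginning of the gene. It included Nfkb1 peaks centred 24.3 kb and 88.3 kb from the gene start, and the single Nfkbid peak of 6776 bp. The median length of the 15 peaks was 1141 bp, next to 456 bp over all peaks, and the comparison was not matched for length. Of the 82 peaks farther from a start, 44 were higher in large intestine, next to 48.5%, with a median ratio of 0.018 next to -0.022.

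To place these genes in their pathway, 67 further genes were listed, of which 59 reached 20 RPKM. Of the 59, 0 were past 2-fold with more signal in large intestine and 2 with more in spleen, next to the 3.36% and 2.03% of all genes, and the median ratio was 0.021. All 27 genes of the IKK complex and the adaptors upstream of it were tested, with ratios between -0.74 and 0.40, and 14 of them were higher in large intestine, next to 50.7% of all genes. The kinase subunits Chuk (-0.090) and Ikbkb (-0.0095) and the scaffold Ikbkg (0.021) all had intervals that included 0. The largest ratios were those of Malt1 (0.40, 0.27 to 0.54), the protease of the complex that links the T cell receptor to IKK, and Tab1 (0.38, 0.15 to 0.61), which activates the kinase TAK1. The lowest were those of Prkcq (-0.74, -0.85 to -0.63), which encodes protein kinase C theta and had more signal in spleen in 62 of 64 peaks, and Traf5 (-0.25, -0.41 to -0.099).

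Of 16 other inhibitors and deubiquitinases 15 were tested, and Tnip3 had no peak. N4bp1, which binds ubiquitin chains and restrains NF-kB signalling, had 155 against 244 RPKM (ratio 0.66, 0.46 to 0.86) and was higher in large intestine in all 17 peaks. Nfkbib, which encodes IkBbeta, had 47.6 and 68.2 RPKM (0.51, 0.24 to 0.78). Its ratio, like that of N4bp1, was above that of every member, but both intervals overlapped that of Nfkbia (0.11 to 0.72). No GC correction is given for the ratios of these inhibitors or of the IKK list. At the other end were Nfkbil1 (-0.29, -0.62 to 0.042) and Tax1bp1 (-0.21, -0.37 to -0.054), an adaptor of A20. The deubiquitinases Cyld (-0.15, -0.29 to -0.0044) and Otulin (0.16, 0.024 to 0.29) lay on opposite sides of 0.

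The 24 listed target genes held the widest range. Of these, 17 were tested, while Bcl2a1b, Ccl5, Ier3, Ptgs2, Csf2, Il6 and Cxcl10 had no peak in the gene body. Bcl2, an inhibitor of cell death, had 406 RPKM in the spleen library and 132 RPKM in the large intestine library (ratio -1.61, -1.89 to -1.33), with 1 of 37 peaks higher in large intestine. These peaks covered 6.86% of its body, and its level per length was low, 0.780 and 0.267 RPKM. Ccr7, the receptor that guides cells into lymph nodes, had 61.5 and 24.0 RPKM (-1.34, -1.64 to -1.04). The largest ratios were those of Tnfrsf9, a costimulatory receptor, with 77.1 and 152 RPKM (0.97, 0.72 to 1.23) and all 10 peaks higher in large intestine, and of Gadd45b (0.95, 0.41 to 1.49), of whose 2 peaks 1 was higher in large intestine. The 10 subunit and inhibitor genes spanned 0.73 log2 units, from -0.32 to 0.41, and the 17 target genes 2.59, from -1.61 to 0.97. Such spans also depend on how many genes a list holds and on how they were chosen, so no conclusion is drawn from the contrast.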

How the data were processed

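H3K36me3 was measured by chromatin immunoprecipitation sequencing with single-end reads of 75 nt. Per the study's methods, the authors aligned reads to mm10, called peaks per tissue with MACS2 against input, merged them over both tissues with bedtools, made RPKM coverage tracks and summarised them over the merged peaks with multiBigwigSummary. The deposited values were taken as mean RPKM per peak, since they are not whole numbers, although the table is labelled as raw counts. Value times peak length, checked for the smaller products only, was whole in units of 1 step per library (tolerance 0.05). With bins of 20 bp this step gave the mapped reads. Reads per peak were not recovered, so no count test was run, and no p-value is given with 1 library per tissue. Submitters' notes also name FastQC and Bowtie2, with no version.

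Peaks ended within GRCm38 on all 21 chromosomes. They were assigned by midpoint to GENCODE M21 gene bodies, and a peak in several bodies counted for each. Columns were scaled to equal totals, peaks were summed per gene, and ratios had a pseudocount of 0.5 RPKM. Genes whose libraries together reached 20 RPKM were tested, where called means past 2-fold. Counting intervals (95%) took each read as 200 bp of coverage. GC content came from the RefSeq GRCm38.p6 genome, in 20 bins. Of the pathway lists, genes past 2-fold and the 2 most extreme genes in each direction are named; the other genes named there (the IKK subunits, Cyld and Otulin) were chosen after their values were seen. The members and lists were chosen with earlier results of these data known. A further marker of the fixed lists is not reported here. Python 3.11.15, numpy 2.4.6 and pandas 2.3.3 were used.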

Additional observations from a re-analysis of the deposited data

How the results depend on the processing

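With 1 library per tissue the differences have no replicate check, and short peaks are limited by depth. No paired analysis was possible because each tissue had 1 library and the result comes from no test. Each member's ratio was recomputed under 10 alternatives, of which peaks of 1 kb or more only was chosen after seeing the data. Of these 100 values 96 stayed within the counting interval of the reported ratio, 4 moved further and 0 of the members with an interval off 0 changed sign. The 4 were Rel with the strongest peak (-0.13) and with GC correction (-0.060), and Nfkb2 (0.047) and Nfkbid (-0.15) with GC correction. Several of the 100 values repeat the reported ratio, because the alternative took the same peaks of that gene. The count of 96 is therefore no measure of stability. The interval of Nfkb1 was above 0 in all 10, that of Bcl3 in 9, of Nfkb2 in 8 and of Nfkbia in 6, and that of Rel was below 0 in 8. Relb, Nfkbid, Nfkbiz, Tnfaip3 and Rela, whose intervals included 0, changed sign under at least 1 alternative. Members past 2-fold numbered 0 under every alternative, between 5 (weighted by length, strongest peak) and 9 (deposited scaling) were higher in large intestine, and their median ratio lay between 0.036 (GC correction) and 0.13. At 200 RPKM 4 members remained (Rel, Relb, Nfkb1 and Nfkbiz), with a median of -0.0019.

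Pathway genes past 2-fold with more signal in large intestine numbered 1 in place of 0 with the deposited scaling (Tnfrsf9, 1.02), with peaks weighted by length (Gadd45b, 1.43), and with the strongest peak or peaks of 1 kb or more (Gadd45b, 1.54). Those with more signal in spleen numbered 1 in place of 2 with the nearest transcript start, where Bcl2 had -0.66, and with at least 200 RPKM, which Ccr7 did not reach. Over all genes, the counts past 2-fold, which were 365 (large intestine) and 220 (spleen), were 624 and 457 with no filter, 68 and 38 of 4266 genes at 200 RPKM, 249 and 138 with a pseudocount of 5, and 119 and 39 with peaks of 1 kb or more. The cause of the other shifts was not tested.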
